A study of Mus musculus with 24 samples.

Results

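Fear conditioning pairs a tone with a foot shock in a new place, and the hippocampus is needed to remember that place. The libraries described here hold RNA from the whole hippocampus of control mice, 3 taken 1 h after fear conditioning and 3 taken naive. They are 6 of the 24 libraries that the series made from 12 mice. A gene was kept when it reached a CPM of 1 (its count scaled to the size of the library) in at least 3 of the 6 libraries, which left 14471 of the 51733 genes in the table. Fold changes are 1 h against naive on a log2 scale with their standard error (SE), and "called" means an adjusted p below 0.05 in the quasi-likelihood test of edgeR.

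All mice were males of 2 to 3 months on a C57BL/6 background, and each library came from the hippocampi of 1 mouse. Control mice carried Cre recombinase under the CaMKIIα promoter, which is active in excitatory forebrain neurons. The labels name them Standard CaMKIIα-Cre+ with the modification control, and do not give their eIF2α alleles. The samples were made for RiboTag, a method in which ribosomes of Cre-expressing cells carry an HA tag, and the labels name the HA antibody but not the tagged allele. The input is the lysate before the pull-down and so holds RNA of every cell type. Other sets of libraries are used for comparison. The immunoprecipitates (IP) of the same control mice hold RNA bound to tagged ribosomes, again in 3 naive mice and 3 mice at 1 h. The inputs of conditional knock-in mice (eIF2α cKI-CaMKIIα, here cKI), 3 naive and 3 at 1 h, come from A/A;fTg+ animals with the same Cre, whose eIF2α translation factor cannot be phosphorylated in Cre-expressing cells. The protocols describe a weak and a strong training and do not say which one these mice had, whether memory was tested before the tissue was taken, or what handling the naive mice had.

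Neurons that fire strongly switch on immediate-early genes within minutes, first transcription factors such as Fos and the Egr family, then effectors that act at the synapse or damp the signal. Stress also releases glucocorticoid hormone, whose receptor enters the nucleus of neurons, glia and vessel cells and raises a set of target genes. Folding helpers of the endoplasmic reticulum rise when a cell has more secreted or membrane protein to fold.

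The control inputs held 28810676 to 37732528 counts, of which 2.86 to 3.36% came from mitochondrial genes. Naive replicate 2 stood apart, with a median absolute deviation of 0.17 on the log2 scale against 0.0665 to 0.113 in the other 5. The sequencing lane in the labels was 4 for naive replicates 1 and 2 and 5 for the other 4 control inputs, so lane and training can hardly be told apart. The tissue carried the markers of hippocampus in all 6 libraries: Slc17a7 of excitatory neurons lay at 835 to 931 CPM in naive mice and 861 to 899 at 1 h, and Prox1 of granule cells at 117 to 159 and 127 to 151. Drd2 of the striatum and Prkcd of the thalamus lay at 2.92 to 3.33 and 22.2 to 27.1 CPM in naive mice and 2.54 to 4.06 and 17.7 to 31.3 at 1 h. Ttr of the choroid plexus reached 349.7 CPM in 1 h replicate 1 and 186 in naive replicate 2, against 1.99 to 22.1 in the others. The summed choroid plexus and ependymal markers lay at 68.8 to 279 CPM in naive libraries and 96.3 to 474 at 1 h. Ttr is part of this sum and most of its highest values, so the sum is no separate measure.

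One hour after conditioning 82 genes were called higher (0.567% of the genes tested) and 70 lower (0.484%). An unadjusted p below 0.05 was seen for 1837 of the 14471 genes. For the fit with lane as a covariate and for the IP that number is not reported here. Most changes were small. Of the 152 called genes (1.05%), 100 differed by less than 1.5-fold, and 9 higher and 5 lower genes passed 2-fold. The 3 libraries at 1 h lay outside the range of the naive ones for all 152, as they did for 16.2% of all genes tested (7.87% above and 8.34% below). Among the called genes were immediate-early genes, genes that glucocorticoids induce and endoplasmic reticulum chaperones on the higher side, and genes of myelinating oligodendrocytes on the lower side. Lists of immediate-early, ERK feedback, glucocorticoid-induced, clock, chaperone and heat shock genes held 29 of the 82 higher genes. The share of all genes tested that these lists held together is not reported here. In whole tissue, fewer cells of a type and less RNA per cell cannot be told apart.

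**Figure D1:**
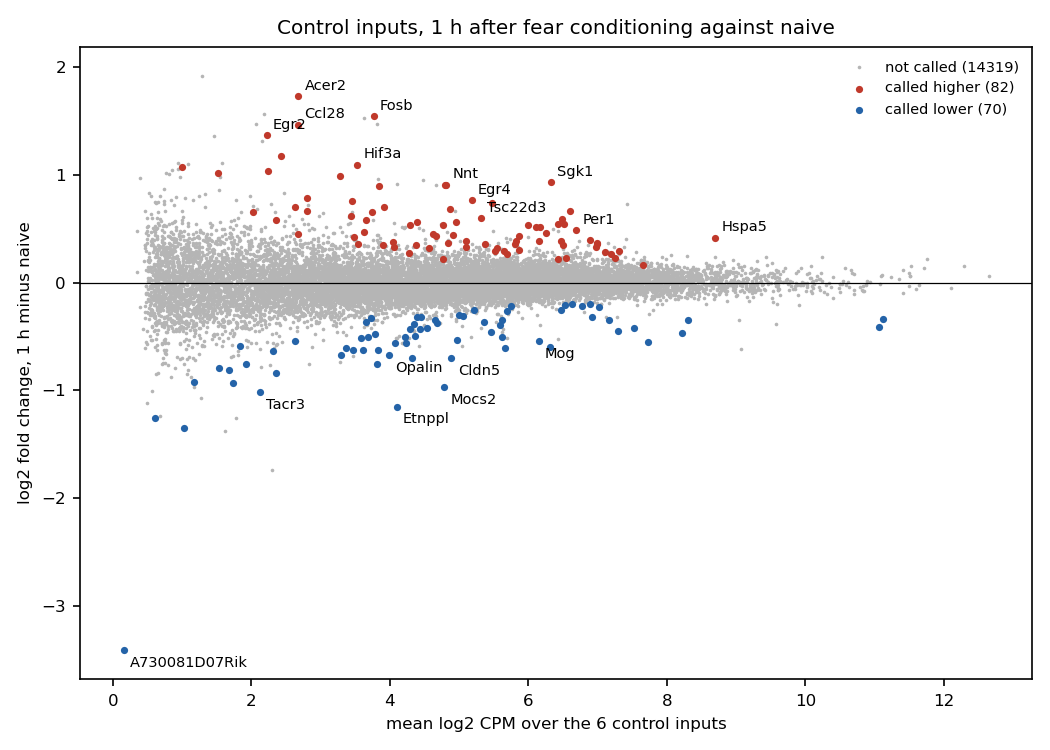
Each point is 1 of the 14471 genes, with its mean log2 CPM over the 6 control inputs on the x axis and its log2 fold change (1 h minus naive) on the y axis. The 82 genes called higher are red and the 70 called lower are blue, and most of them lie within 1 log2 unit of 0.

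The counts of calls differed between fits. All cKI inputs were on lane 4. With lane as a covariate, naive replicate 3 was therefore the only library to set the naive level beside the 1 h ones. Whether the fewer calls in that fit came from lane or from lost precision was not tested. DESeq2 called 189 higher (1.31%) and 121 lower (0.836%). With lane as a covariate 9 genes were called higher (0.0622%) and 4 lower (0.0276%), all of them among the 152, and with the 6 control inputs fitted alone 7 and 10. Leaving out 1 library gave 32 higher and 22 lower genes without naive replicate 1, 73 and 60 without naive replicate 2, 50 and 42 without naive replicate 3, 55 and 29 without 1 h replicate 1, 39 and 43 without 1 h replicate 2 and 19 and 12 without 1 h replicate 3.

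Some immediate-early transcription regulators rose. Of 36 tested, 5 were called higher and none lower: Fosb, Egr2, Egr4, Fosl2 and Bhlhe40. Their list had a median log2 fold change of 0.14, against −0.0013 over all genes tested, of which 0.567% were called higher. Fosb, a partner of Jun proteins in the AP-1 factor, stood at 8.58, 7.20 and 7.39 CPM in the naive libraries and at 19.5, 27.9 and 19.8 at 1 h. The groups were far apart, with the highest value in 1 h replicate 2. Fosb rose 2.92-fold (log2 1.55 ± 0.13, adjusted p = 0.000105). Egr2, a zinc finger factor, went from 3.01, 1.88 and 3.07 CPM to 4.48, 9.92 and 6.05 (log2 1.37 ± 0.26, adjusted p = 0.0297). Egr4 of the same family went from 30.1, 26.2 and 26.8 to 40.1, 56.7 and 43.1 CPM (log2 0.76 ± 0.12, adjusted p = 0.0128). In both genes every library at 1 h was above every naive one. Fosl2, another AP-1 subunit, was called at 0.54 ± 0.099, and Bhlhe40, a repressor that also acts in the clock, at 0.33 ± 0.056. Fosb kept its call when any 1 control input was left out, while Egr2 lost it in 5 of the 6 such fits, Fosl2 in 4 and Egr4 and Bhlhe40 in 2.

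Several well known members did not pass. Fos stood at 13.5, 7.00 and 10.4 CPM in naive mice and 14.6, 29.9 and 15.3 at 1 h, with 0.97 ± 0.30 and an adjusted p of 0.212. The 3 libraries at 1 h were above the naive ones, with 1 h replicate 2 far above the rest. Egr1 (0.73 ± 0.16, adjusted p = 0.0751) was just above the threshold. Nr4a1 had 0.42 ± 0.17 and Junb 0.22 ± 0.14. Npas4, which responds to neuronal calcium entry, was at 15.0, 7.23 and 12.7 CPM in naive and 8.50, 15.4 and 11.4 at 1 h, and its groups overlapped (0.024 ± 0.26). DESeq2 called 9 regulators higher.

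The promoter of Fosb is shown because this gene had the largest change on the list, and that of Egr2 because a box for serum response factor, the CArG box, lies near its start. The sequences come from the RefSeq promoter table of assembly GRCm38.p6. Fosb is given as the 250 bases before its start at chr7:19310046-19310295 (minus strand), with the core TGACG of the cAMP response element (CRE) in capitals. Egr2 is given as 30 bases at chr10:67537484-67537513 (plus strand), before the second of its annotated starts, with the box in capitals.
Fosb: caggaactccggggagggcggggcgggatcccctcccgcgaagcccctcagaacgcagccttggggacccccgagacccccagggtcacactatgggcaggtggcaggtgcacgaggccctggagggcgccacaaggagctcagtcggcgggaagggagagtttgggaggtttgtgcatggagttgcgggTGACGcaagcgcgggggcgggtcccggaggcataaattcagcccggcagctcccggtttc
Egr2: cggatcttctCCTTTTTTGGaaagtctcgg
TGACG was present in 30.0% of the 10698 tested genes with a promoter in that table, so its presence in Fosb is a common feature. The CArG box, searched as CC, then 6 bases of A or T, then GG, on both strands, was in 1.33%. It was found in Egr2 and Mknk2 among the 63 higher genes with a promoter and in Tmem163 among the 54 lower ones.

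**Figure D2:**
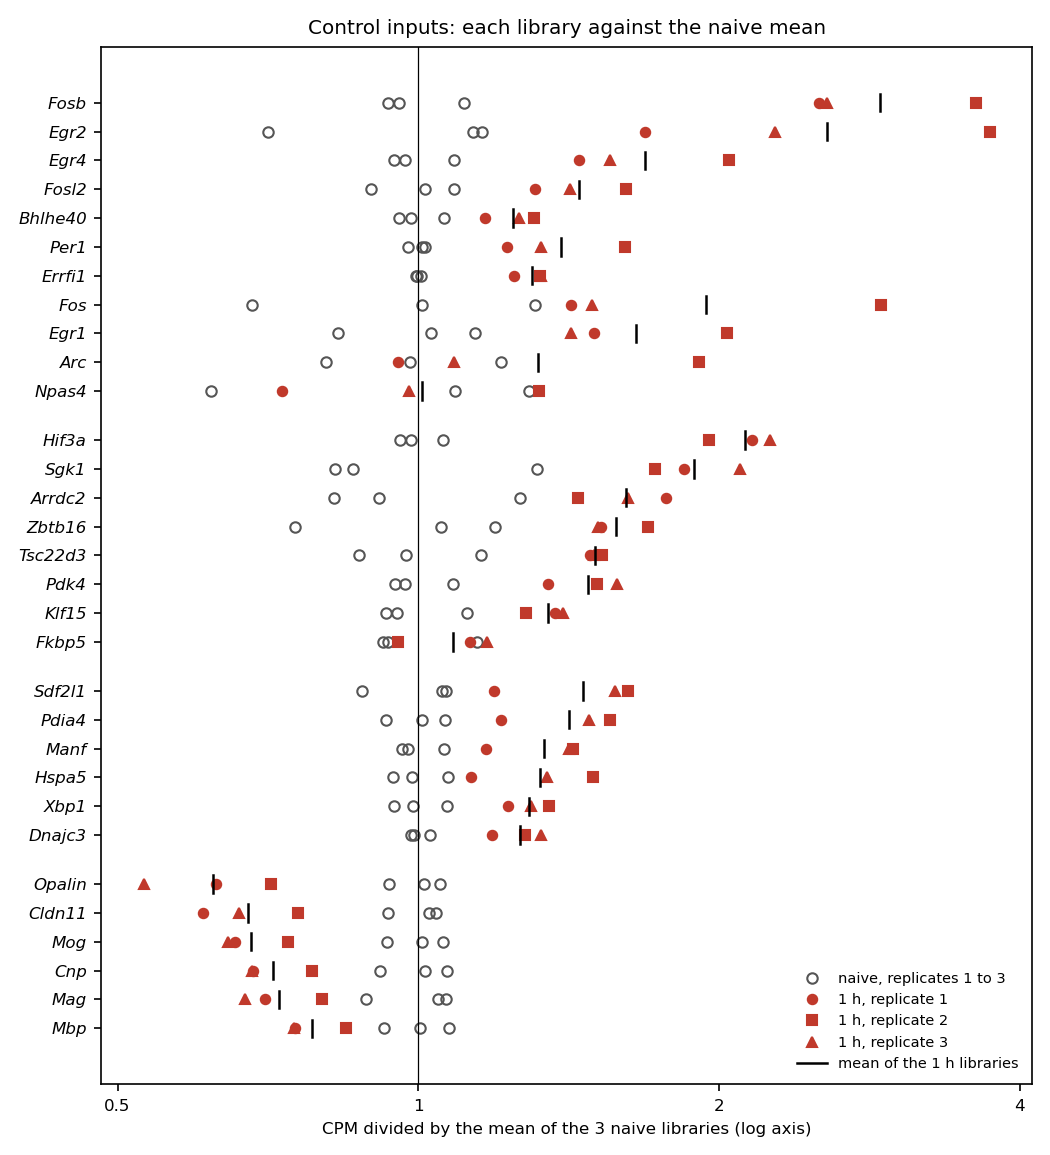
CPM in each control input divided by the mean of the 3 naive libraries, on a log axis, for immediate-early genes (Fosb to Npas4), glucocorticoid-induced genes (Hif3a to Fkbp5), endoplasmic reticulum chaperones (Sdf2l1 to Dnajc3) and oligodendrocyte markers (Opalin to Mbp). Open circles are naive, filled symbols are the 3 libraries at 1 h and bars their mean. 1 h replicate 2 is farthest right for most immediate-early genes and chaperones and nearest to naive for the oligodendrocyte markers.

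Effectors of the immediate-early response held calls of smaller size. Of 33 tested, 6 were called higher and none lower, against 0.567% called higher over all genes tested. The list median was 0.18. Per1, a clock gene with CREs that responds within the hour to light and activity, was at 88.8, 88.1 and 85.4 CPM in naive mice and 107, 141 and 116 at 1 h. Errfi1, which blocks the EGF receptor, was at 49.4, 48.7 and 48.9 and 61.1, 64.8 and 65.0 CPM. The groups were apart in both, and Per1 (0.49 ± 0.077, adjusted p = 0.00998) and Errfi1 (0.39 ± 0.053, adjusted p = 0.00439) kept their calls with any 1 library left out. The other calls were Arl4d, a small GTPase (0.47 ± 0.081), Trib1, a pseudokinase (0.35 ± 0.077), Dnajb5, a co-chaperone (0.29 ± 0.063), and Tiparp, an ADP-ribosyltransferase (0.27 ± 0.056). Arc, which takes AMPA receptors in from the synapse, was at 184, 123 and 149 CPM in naive mice and 145, 290.3 and 165 at 1 h. Its groups overlapped, since only 1 h replicate 2 was clearly high (0.41 ± 0.24, adjusted p = 0.503). Homer1, a scaffold whose short form is immediate-early, had 0.12 ± 0.063.

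In 10 of the 11 immediate-early genes called, 1 h replicate 2 was the highest of its group, and in 10 of them 1 h replicate 1 was the lowest. The summed CPM of the 36 regulators was 1353 to 1424 in naive libraries and 1520.3 to 1873 at 1 h. Calls among the 5 regulators numbered 2 without naive replicate 2, 1 h replicate 2 or 1 h replicate 3 and 3 without naive replicate 1 or 3. Calls among the 6 effectors numbered 2 to 3 without any library other than naive replicate 2, and with lane as a covariate 1 regulator and 0 effectors were called, with 8 of each at an unadjusted p below 0.05.

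The CRE in full, TGACGTCA, reads the same on both strands and was in the promoters of 3.1% of the genes. Among the higher genes it was in Dio2, Arl4d and Errfi1, and among the lower ones in Mcam. Arl4d is shown in whole, 250 bases at chr11:101665291-101665540 (plus strand), because its CRE lies next to the start. Errfi1 is shown as 30 bases at chr4:150855008-150855037 (plus strand), before the second of its annotated starts. Capitals mark the CRE.
Arl4d: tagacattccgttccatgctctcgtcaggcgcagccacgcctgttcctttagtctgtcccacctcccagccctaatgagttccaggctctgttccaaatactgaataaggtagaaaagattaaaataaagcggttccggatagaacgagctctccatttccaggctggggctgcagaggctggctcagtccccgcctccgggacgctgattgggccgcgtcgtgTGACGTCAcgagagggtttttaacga
Errfi1: gctgcgggcgtTGACGTCAcgttgtcgctc
A match says only that these letters stand in the window.

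Feedback inhibitors of the ERK kinase pathway had 1 call of 16, Errfi1. Dusp5, a nuclear ERK phosphatase, had 0.29 ± 0.089 (adjusted p = 0.178). Of 24 genes that follow activity with a delay, 0 were called by edgeR or DESeq2, and 2 had an unadjusted p below 0.05. Bdnf, a growth factor for synapses, was at 39.2, 41.4 and 40.3 CPM in naive mice and 41.4, 42.8 and 41.2 at 1 h, and Nptx2, which clusters AMPA receptors, at 25.0, 27.7 and 28.1 and 30.1, 29.0 and 28.9 CPM. The Bdnf groups overlapped and the Nptx2 groups lay just apart, with log2 fold changes of 0.064 ± 0.054 and 0.13 ± 0.099.

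Several glucocorticoid-induced genes rose. Of 28 tested, 12 were called higher and none lower, and 24 had a positive log2 fold change. Of all 14471 genes tested, 0.567% were called higher and 7181 had a positive log2 fold change. The list median was 0.30. Hif3a, an oxygen-response factor that glucocorticoids raise in many tissues, was at 7.98, 7.23 and 7.42 CPM in naive mice and 16.3, 14.8 and 17.0 at 1 h. It rose 2.14-fold with narrow, separate groups (1.10 ± 0.082, adjusted p = 6.91e-05). Sgk1, a kinase that regulates ion channels and transporters, was at 50.6, 77.3 and 48.5 CPM and then 108, 101 and 123. Naive replicate 2 was the highest naive library for Sgk1 and still below all 3 at 1 h (0.93 ± 0.14, adjusted p = 0.00998). Tsc22d3, also called GILZ, which carries part of the anti-inflammatory action, was at 31.3, 37.1 and 28.1 CPM and then 47.8, 49.1 and 48.2. The 3 values at 1 h were nearly the same (0.60 ± 0.071, adjusted p = 0.00215).

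Arrdc2, an arrestin-like protein, was called at 0.70 ± 0.13, and Zbtb16, a zinc finger repressor, at 0.67 ± 0.14. Pdk4, which turns cells from glucose to fat, had 0.58 ± 0.11. The Krüppel-like factors Klf15 and Klf9 had 0.44 ± 0.071 and 0.17 ± 0.036. Mertk, a receptor by which astrocytes and microglia take up debris, had 0.31 ± 0.059. The remaining calls, Per1, Arl4d and Errfi1, also belong to the effector list above, so the lists share 3 called genes. Fkbp5, a chaperone of the receptor and one of its usual readouts, was at 76.1, 94.6 and 77.1 CPM in naive mice and 93.0, 78.8 and 96.9 at 1 h. Its groups overlapped (0.13 ± 0.089, adjusted p = 0.547).

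The highest value at 1 h fell in replicate 1 for 2 of the called genes, in replicate 2 for 4 and in replicate 3 for 6. Summed over the list, CPM was 1259.5 to 1429.9 in naive libraries and 1558 to 1652 at 1 h. Calls numbered 7 without naive replicate 1, naive replicate 3 or 1 h replicate 2, 4 without 1 h replicate 3, and 2 with lane as a covariate (Hif3a and Tsc22d3), where the list median was 0.40.

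Sgk1 was the only one of the 10698 genes whose promoter held the whole receptor element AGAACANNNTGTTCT (0.00935%), searched on both strands. It is shown as 30 bases at chr10:21993693-21993722 (plus strand), before 1 of several starts annotated for Sgk1, with the element in capitals.
Sgk1: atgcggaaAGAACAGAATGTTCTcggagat
Its first part alone, AGAACA, was in 1390 of the 10698 and, of the called genes on this list, in Sgk1 and Tsc22d3.

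Clock genes had 3 calls of 22, all higher: Per1, Bhlhe40 and Per2. Over all genes tested, 0.567% were called higher. Per2 was at 55.9, 51.4 and 51.7 CPM in naive mice and 61.2, 86.4 and 80.8 at 1 h, so 1 h replicate 1 lay closest to the naive range (0.53 ± 0.10, adjusted p = 0.0267). The labels give no time of day for tissue collection.

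Some chaperones of the endoplasmic reticulum rose as well. Of 19 tested, 7 were called higher and none lower, 18 had a positive log2 fold change and the median was 0.17. Over all 14471 genes tested, 0.567% were called higher and 7181 were positive. Hspa5 (BiP), the main Hsp70 of this compartment, was at 357, 389 and 342 CPM in naive mice and 409, 542 and 488 at 1 h. Pdia4, a disulfide isomerase, was at 61.4, 58.2 and 53.6 and then 69.8, 89.9 and 85.6 CPM. All libraries at 1 h lay above the naive ones in both, by 0.42 ± 0.089 (adjusted p = 0.0496) and 0.52 ± 0.082 (adjusted p = 0.00998). Xbp1, the transcription factor of the unfolded protein response, was at 77.1, 83.3 and 73.8 and 96.0, 105 and 101 CPM (0.38 ± 0.051, adjusted p = 0.00399), and its call held with any 1 library left out. Sdf2l1, which keeps BiP clients soluble, had 0.56 ± 0.11, the secreted factor Manf 0.43 ± 0.076, Herpud1 of the degradation machinery 0.36 ± 0.063 and the co-chaperone Dnajc3 0.35 ± 0.055. The highest library was 1 h replicate 2 in 6 of these 7 genes, and the lowest at 1 h was replicate 1 in all 7. Calls numbered 3 without naive replicate 1 or 1 h replicate 2 and 1 without 1 h replicate 3, and with lane as a covariate there were 0, with 12 at an unadjusted p below 0.05 and a median of 0.20.

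The element that the unfolded protein response uses, ERSE, was searched as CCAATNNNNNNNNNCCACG on both strands. It was in the promoters of 14 of 10698 genes (0.131%), 2 of them called higher, Hspa5 and Dnajc3. Both are shown as the 250 bases before their start, at chr2:34771840-34772089 (plus strand) and chr14:118937682-118937931 (plus strand), with the element in capitals.
Hspa5: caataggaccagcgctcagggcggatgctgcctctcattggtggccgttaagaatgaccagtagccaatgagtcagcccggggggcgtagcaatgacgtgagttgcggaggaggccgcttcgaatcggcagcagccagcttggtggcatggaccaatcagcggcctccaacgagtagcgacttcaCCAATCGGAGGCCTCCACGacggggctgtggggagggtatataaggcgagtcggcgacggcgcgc
Dnajc3: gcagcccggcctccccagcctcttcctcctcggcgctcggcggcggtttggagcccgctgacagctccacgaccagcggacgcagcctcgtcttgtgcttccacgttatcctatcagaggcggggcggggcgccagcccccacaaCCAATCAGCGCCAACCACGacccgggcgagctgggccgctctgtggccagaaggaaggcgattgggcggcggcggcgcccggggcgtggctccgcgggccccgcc
No promoter of the 54 lower genes held these letters.

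Other stress lists held few calls. Of 20 heat shock genes 1 was called, Dnajb1, an Hsp40 of the cytosol, at 58.5, 62.3 and 59.8 CPM in naive mice and 72.8, 102 and 82.5 at 1 h (0.52 ± 0.089, adjusted p = 0.0165). Of 32 targets of ATF4, the factor made when eIF2α is phosphorylated, 0 were called by edgeR or DESeq2 and 4 had an unadjusted p below 0.05, with a median of −0.043. Atf4 itself had 0.068 ± 0.060. In the eIF2 pathway 1 of 17 genes was called, Eif2s3y, the Y-linked copy of the eIF2γ gene, which was lower at 24.5, 29.5 and 21.7 CPM in naive mice and 12.5, 19.2 and 14.4 at 1 h (−0.70 ± 0.14, adjusted p = 0.0428).

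**Figure D3:**
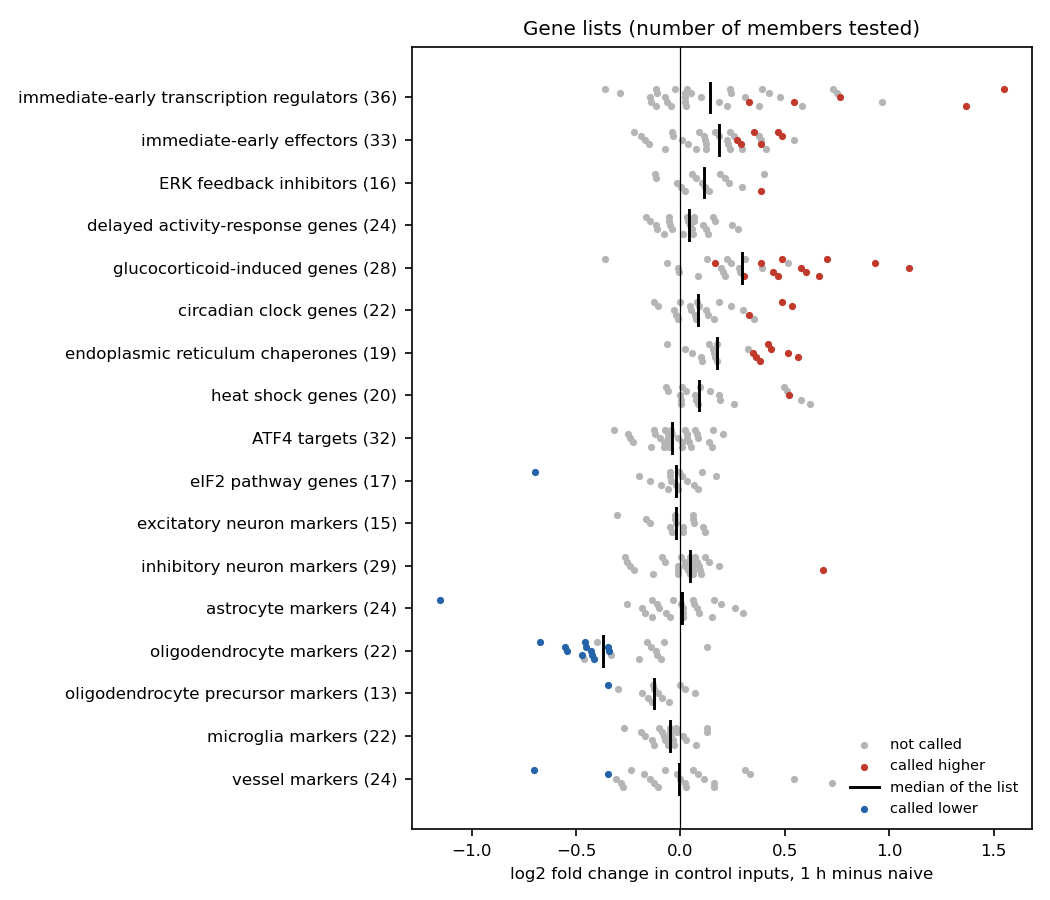
Log2 fold changes (1 h minus naive, x axis) of the members of 17 gene lists in the control inputs, with the number tested after each name. Red and blue points were called higher and lower, grey ones were not called, and black bars are list medians. Calls gather in the glucocorticoid, chaperone and immediate-early lists on the right and in the oligodendrocyte markers on the left.

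Part of the marker genes of myelinating oligodendrocytes fell. Of 22 markers, 11 were called lower and none higher, 21 had a negative log2 fold change, and the median was −0.37. Of all 14471 genes tested, 0.484% were called lower and 7290 had a negative log2 fold change. Summed over the list, CPM was 7543 to 8284 in naive libraries and 5879 to 6806 at 1 h. Mog, a protein of the outer myelin surface, was at 86.4, 90.7 and 79.7 CPM in naive mice and 56.1, 63.4 and 55.1 at 1 h. Opalin, a membrane protein of mature oligodendrocytes, was at 19.8, 20.5 and 18.3 and then 12.3, 13.9 and 10.4 CPM. In both the groups were apart, with falls of 0.54 ± 0.071 (adjusted p = 0.00350) and 0.67 ± 0.093 (adjusted p = 0.00439) on the log2 scale. Cldn11, the tight junction protein of myelin, was at 264, 269 and 241 and 157, 196 and 171 CPM (−0.55 ± 0.070, adjusted p = 0.00336).

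Abundant myelin transcripts were among the calls. Mbp, which compacts the myelin sheath, was at 2519.6, 2696 and 2321 CPM and then 1889, 2128 and 1885 (−0.34 ± 0.064, adjusted p = 0.0228). Cnp, an enzyme of uncompacted myelin, fell by 0.47 ± 0.066, and Mag, an adhesion protein next to the axon, by 0.45 ± 0.078. Fa2h, which makes hydroxylated myelin lipids (−0.46 ± 0.084), Tspan2 (−0.42 ± 0.073) and Mal (−0.35 ± 0.069) were called too. 1 h replicate 2 was the highest of its group, nearest to the naive libraries, in all 11. Calls numbered 4 without 1 h replicate 1, 4 without 1 h replicate 3, 4 without naive replicate 1, and 0 with lane as a covariate, where 13 had an unadjusted p below 0.05 and the list median was −0.32.

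Precursors of oligodendrocytes had 1 call of 13, Olig1, a lineage factor, at −0.35 ± 0.056, and their median was −0.13. Pdgfra, their defining receptor, was at 64.6 to 68.4 CPM in naive and 61.7 to 62.0 at 1 h. Vessel markers had 2 calls of 24, both lower, against 0.484% called lower over all genes tested. Cldn5, the tight junction protein of brain endothelium, was at 32.5, 47.2 and 33.4 CPM in naive mice and 22.7, 20.4 and 25.6 at 1 h (−0.70 ± 0.13, adjusted p = 0.0239). Pdgfrb, a pericyte receptor, had −0.34 ± 0.068, while the median of the 24 was −0.0079.

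Neuronal and other glial markers held few calls. Excitatory neuron, dentate granule cell, CA1, CA3 and CA2, and microglia markers had 0 by edgeR or DESeq2, with 1, 4, 2, 1 and 2 genes in that order at an unadjusted p below 0.05. Over all 14471 genes tested, 1837 had an unadjusted p that low. Inhibitory neuron markers had 1 of 29, Adarb2, an RNA-binding gene of some interneurons, at 23.7, 19.2 and 25.5 CPM in naive mice and 35.3, 33.4 and 40.5 at 1 h (0.68 ± 0.14, adjusted p = 0.0448). Astrocyte markers had 1 of 24, Etnppl, described next. Summed astrocyte markers lay at 10837 to 10938 CPM in naive libraries and 10499 to 11288 at 1 h, and excitatory neuron markers at 7554 to 8603 and 8054 to 8374. Both ranges overlapped. Leptomeningeal markers summed to 387 to 863 and 534 to 639 CPM and blood markers to 23.9 to 31.7 and 31.2 to 39.8, with 0 calls in either list by edgeR or DESeq2 and 0 genes at an unadjusted p below 0.05. Their part in the results was not tested. Glutamate receptor, neuropeptide, cholesterol synthesis, interferon, ribosomal protein and oxidative phosphorylation lists had 0 calls by edgeR, with 2, 2, 1, 1, 4 and 7 genes in that order at an unadjusted p below 0.05, and DESeq2 called 1 gene each in the cholesterol and ribosomal protein lists. Of 74 nuclear genes of oxidative phosphorylation, 73 had a negative log2 fold change, with a median of −0.11 that was −0.014 with lane as a covariate. Their summed CPM was 8980, 10760 and 8828 in naive libraries and 9054, 8646 and 8779 at 1 h. Only naive replicate 2 stood clearly above the rest.

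Many of the largest changes were outside the lists. Acer2, a ceramidase of the Golgi, was at 2.41, 3.79 and 3.55 CPM in naive mice and 8.19, 11.9 and 12.0 at 1 h, with no overlap. It rose 3.32-fold (1.73 ± 0.21, adjusted p = 0.00336). Other higher genes were Ccl28, a chemokine (1.47 ± 0.20), Tmem267, a membrane protein (1.18 ± 0.19), and Fmo2, a monooxygenase (1.04 ± 0.19). Nnt, a transhydrogenase of the inner mitochondrial membrane, was at 20.7, 20.7 and 19.3 CPM and then 32.9, 39.7 and 40.3. Its groups were narrow and apart (0.91 ± 0.073, adjusted p = 6.91e-05). The clone-named gene AC154550.1 had nearly the same counts as Nnt in every library, so these entries may share reads and their separate values are uncertain. Among the 12 largest were also Sfrp1, a secreted Wnt inhibitor (0.79 ± 0.15), and Stk10, a kinase of white blood cells (0.76 ± 0.11).

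Among genes of metabolism picked after their values were seen, Dio2, which makes active thyroid hormone in astrocytes, was at 81.2, 67.9 and 78.6 CPM and then 104, 111 and 115 (0.54 ± 0.075, adjusted p = 0.00439). Adipor2, an adiponectin receptor, was at 67.6, 64.2 and 62.8 CPM and then 89.8, 90.7 and 85.9 (0.46 ± 0.045, adjusted p = 0.000253). Both were separate in all 6 libraries and kept their calls with any 1 library left out.

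On the lower side Etnppl, an astrocyte enzyme that degrades phosphoethanolamine, was at 25.6, 24.8 and 23.9 CPM in naive mice and 11.0, 11.2 and 10.9 at 1 h. The values in each group were nearly equal, and the fall was 1.15 ± 0.11 on the log2 scale (adjusted p = 0.000228). Tacr3, the receptor of neurokinin B, had −1.02 ± 0.18, Mocs2 of molybdenum cofactor synthesis −0.97 ± 0.16, Dapp1, a lipid-binding adaptor, −0.84 ± 0.15, and Ddit4l, an mTOR inhibitor, −0.76 ± 0.14. Manba, a lysosomal mannosidase, was at 11.5, 11.7 and 12.0 CPM and then 7.88, 7.01 and 7.06 (−0.67 ± 0.092, adjusted p = 0.00439). Chst3 (−0.64 ± 0.14), Nkd1 (−0.63 ± 0.082) and Gpr62 (−0.62 ± 0.11) completed the 12 with Cldn5, Eif2s3y and Opalin. The transcript A730081D07Rik, outside the rule by its clone name and low level, reached 1 CPM in the naive libraries alone among the 6 control inputs, so it was tested only through the group where it is high. It went from 1.35, 1.56 and 1.54 CPM to 0.0347, 0.153 and 0.202 (−3.41 ± 0.33, adjusted p = 0.000228), the value in 1 h replicate 1 being a single count.

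Some of these genes were neighbours. In the RefSeq gene order of GRCm38.p6, used only for which gene lies beside which, 147 called genes could be placed, and 27 of them (18.4%) had another called gene within 5 measured genes. Over all 13458 measured genes placed, 9.62% had a called gene that near. They formed 11 runs, 3 of which held 3 or more called genes. Fgf10 (0.54 ± 0.10), Nnt, Tmem267 and Ccl28 made a run in which all were higher. Mocs2, Elovl7 and Smim15, called lower, lay 8, 27 and 30 measured genes from Nnt. A run of Tacr3, Cisd2 and Manba and a run of Ddit4l, Dapp1, 1110002E22Rik and Adh5 were all lower and lay close to each other. Papss1, called lower (−0.25) and named after its values were seen, lay 18 measured genes from Manba. Etnppl and Casp6 (−0.79 ± 0.17) lay 25 and 29 measured genes from Manba. In a further run Gcnt2, a glycosyltransferase that was higher (0.35 ± 0.069), lay beside A730081D07Rik, which was lower. The deletion of exons of Nnt that separates the C57BL/6J substrain from others is well known, and the labels name no substrain. Whether the mice of the 2 groups differed in alleles near these genes was not tested. Leaving out every called gene with a called neighbour kept 73 higher and 52 lower genes.

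**Figure D4:**
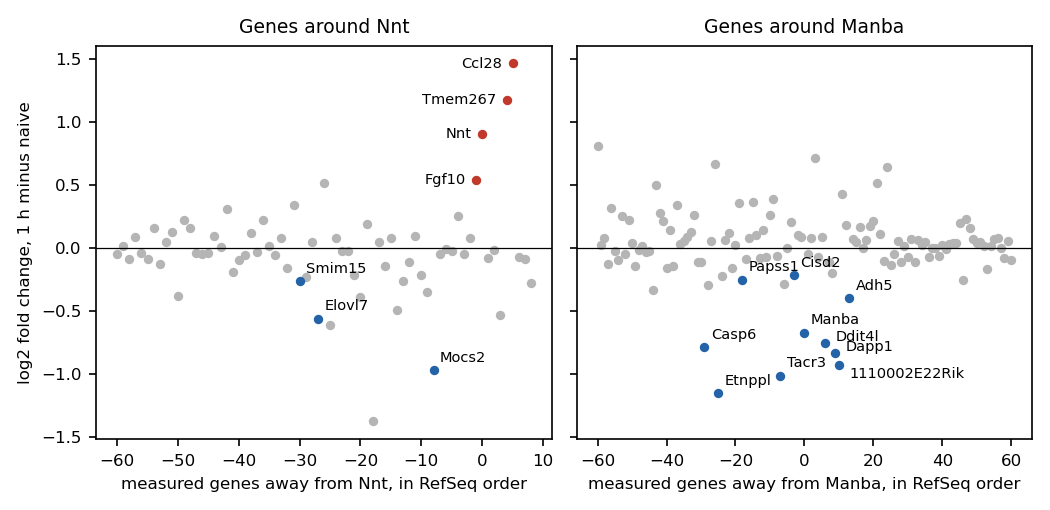
Log2 fold change in control inputs (y axis) of measured genes by their place in RefSeq order around Nnt (left) and Manba (right), as the number of measured genes away. Red points were called higher, blue ones lower and grey ones were not called. Nnt and 3 called genes within 5 places are all higher, while Mocs2, Elovl7 and Smim15, 8, 27 and 30 places from Nnt, are lower. The 6 other called genes within 13 places of Manba are, like Manba, lower.

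The inputs of cKI mice give the same contrast in other animals, all on lane 4. There 1 gene was called higher (0.00691%), Fosb, and 2 lower (0.0138%), and unadjusted p was below 0.05 for 746 of the 14471 genes. The lower ones were Hif3a and Wnt9a, a secreted signal. Fosb stood at 8.32, 7.29 and 7.28 CPM in naive cKI mice and 17.7, 16.7 and 15.7 at 1 h (1.14 ± 0.14, adjusted p = 0.00893). With 1 cKI input left out, 0 to 2 genes were called higher and 0 to 2 lower. Of the 82 genes higher in controls, 60 had a positive log2 fold change in cKI inputs and the median was 0.065. Of the 70 lower genes, 64 had a negative one and the median was −0.14. In cKI inputs the regulators had a median of 0.22, the chaperones 0.065, the glucocorticoid-induced genes −0.054 and the oligodendrocyte markers −0.14. For all genes it was −0.00051.

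The test of the difference between the training effects of control and cKI inputs called 6 genes (0.0415%), all among the 152: Hif3a, Nnt, AC154550.1, Adipor2, Etnppl and A730081D07Rik. In cKI inputs Hif3a was at 15.1, 14.2 and 15.4 CPM in naive mice and 9.43, 9.31 and 8.29 at 1 h, a change of −0.71 ± 0.082 (adjusted p = 0.00893), opposite in sign to controls. The naive cKI values lay near those of control mice at 1 h. Nnt was between the control groups in cKI mice, at 28.4, 28.4 and 28.0 CPM in naive mice and 28.8, 30.0 and 27.8 at 1 h. Etnppl in cKI mice was at 26.5, 19.8 and 26.7 and 26.1, 22.1 and 21.2 CPM, near the naive control level in both states. The test called 19 genes without naive control replicate 2, 13 without control 1 h replicate 1, 3 without control 1 h replicate 2 or cKI 1 h replicate 1 or 2, and 1 with lane as a covariate. For Sgk1, with 0.52 ± 0.14 in cKI inputs, the difference from controls had an adjusted p of 0.993, and for Pdia4, with 0.055 ± 0.082, 0.412.

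**Figure D5:**
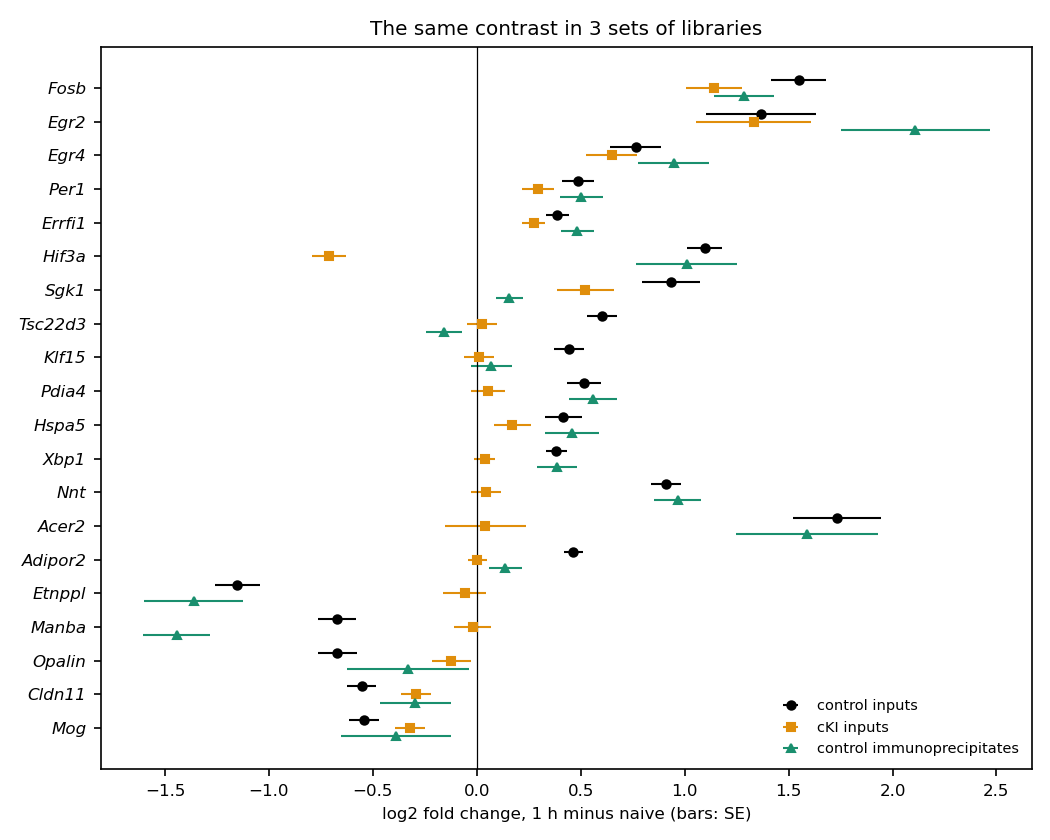
Log2 fold change (1 h minus naive, x axis) with its SE for 20 genes in control inputs (black circles), cKI inputs (orange squares) and control immunoprecipitates (green triangles). Immediate-early genes are right of 0 in all 3 sets, Nnt and Etnppl lie away from 0 in both fractions of control mice and within 1 SE of it in cKI mice, and Hif3a is left of 0 in cKI mice.

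The immunoprecipitates of the control mice show the same animals through ribosome-bound RNA, all on lane 6, so they share the mice but not the lane or library. They had 21 genes called higher (0.145%) and 28 lower (0.193%), which became 4 to 32 and 3 to 13 with any 1 control IP left out. Shared with the inputs were 9 higher genes, which is 11.0% of the 82 and 42.9% of the 21: Fosb, Egr2, Egr4, Nnt, AC154550.1, Banp, Errfi1, P4ha1 and Gcnt2. Lower in both were 4, A730081D07Rik, Etnppl, Manba and Zc2hc1a, which is 5.71% of the 70 and 14.3% of the 28. Fosb in the IP was at 9.30, 9.60 and 12.1 CPM in naive mice and 20.8, 30.5 and 24.1 at 1 h (1.29 ± 0.15, adjusted p = 0.00274). Nnt was at 16.0, 16.8 and 17.8 and 26.4, 38.1 and 34.2 CPM (0.97 ± 0.11, adjusted p = 0.00274). In both the groups were apart in this fraction too.

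The median of the chaperones in the IP was 0.21, where edgeR called 0 of them and 9 had an unadjusted p below 0.05, and Pdia4 had 0.56 ± 0.12 (adjusted p = 0.0667). Regulators had 0.29 with 3 calls. Glucocorticoid-induced genes had 0.14 with 1 call, Errfi1. Sgk1 had 0.16 ± 0.065 in the IP and Tsc22d3 −0.16 ± 0.086, against 0.93 and 0.60 in the inputs. The test of the difference between fractions, with the mouse as a block, gave adjusted p = 0.432 for Sgk1 and 0.177 for Tsc22d3 and called 1 gene in all (0.00691%), none of the 152. Oligodendrocyte markers had −0.079 in the IP, where their RNA is scarce.

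The ratio of IP to input describes how far a transcript sits on tagged ribosomes, and it was taken from the cKI mice, whose IPs entered none of the tests in inputs. Over all genes the median log2 ratio was 0.035. It was −0.24 for the 82 higher genes and −1.82 for the 70 lower ones. A ratio below −1, as for genes of cells without the tag, was seen for 20.5% of all genes, 32.9% of the higher and 57.1% of the lower ones. The oligodendrocyte markers had a median of −4.03, Etnppl −3.79 and Acer2 −3.23. Among glucocorticoid-induced genes the median was −0.70, with −2.75 for Hif3a and −3.70 for Pdk4, and among immediate-early regulators 0.45.

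The minimum of 1 CPM in 3 libraries left 178 genes just inside, with exactly 3 libraries at the minimum and mean CPM of 0.797 to 1.53 over the 6, and 199 just outside with exactly 2, at 0.578 to 4.61. Of the 14471 genes, 26 passed through 1 group alone, with no library of the other group at the minimum, and 2 of these were called, A730081D07Rik and Slc45a3, the latter named after its values were seen.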

How the data were processed

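Poly(A) RNA of lysate inputs and HA immunoprecipitates was read as paired 50-base reads on an Illumina NovaSeq with a directional kit, per the labels' protocols. The authors deposited 1 table of raw read counts per gene and sample, and cutadapt, Bowtie and DESeq2 are listed in the submitters' processing notes. Genome build, annotation and strand setting are not given in the sources used. The control inputs held 28810676 to 37732528 counts, so 1 count was 0.0265 to 0.0347 CPM. Precision is limited by the 3 mice in each group, and each library is a separate mouse.

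Genes with at least 1 CPM in at least 3 of the 6 control inputs were tested with edgeR 4.0.16 in R 4.3.3 (limma 3.58.1), with TMM scaling and the robust quasi-likelihood test. The fit took all 12 inputs with 4 group means, which left 8 residual degrees of freedom, and the contrast was 1 h minus naive in control mice, two-sided. P-values were adjusted by the Benjamini-Hochberg method over all 14471 genes, with 0.05 as the threshold. The same fit gave the contrast in cKI inputs and the genotype by training difference. The immunoprecipitates had their own fit over 12 libraries, and the fraction by training difference was fitted over 12 control libraries with the mouse as a block. The control-input, genotype-difference, fraction-difference and immunoprecipitate fits were also run on simulated counts, whose results are not reported here. The simulated counts held no lane effect. Of the alternatives below, only the DESeq2 Wald test was run on them.

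Alternatives were DESeq2 1.42.0 (Wald test), DESeq2 size factors, edgeR's filterByExpr, no filter, the 6 control inputs alone, a replicate block, lane as a covariate, lane 5 alone and each library left out. Named genes were the 12 largest changes in each direction among called genes whose mean log2 CPM was 2 or more, with separate groups and no clone name, up to 4 members with the smallest p of each list, and a set of well known genes. Others are said to be chosen after their values were seen, or belong to a run of neighbours, a list's calls or a shared set. The genes tested, the 33 lists and the rule were chosen with earlier results of these data known. Symbols matched the RefSeq table of GRCm38.p6 for 92.0% of genes, and promoters were the 250 bases before each start. A gene was counted with a motif when any of its annotated starts held it. Replicate numbers are not read as pairs. Some members of the lists are counted with their list and not reported by name here.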

Additional observations from a re-analysis of the deposited data

Results flagged for a closer look

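The following genes had a training effect that differed between control and cKI inputs (log2 change in controls minus that in cKI, edgeR adjusted p). Hif3a differed by 1.81 ± 0.12 (adjusted p = 1.16e-05). All 3 control mice at 1 h lay above the naive control mice. All 3 cKI mice at 1 h lay below the naive cKI mice. Nnt differed by 0.87 ± 0.10 and AC154550.1, which may share its reads, by 0.86 ± 0.10 (adjusted p = 0.00685 for both). Adipor2, the adiponectin receptor, differed by 0.46 ± 0.064 (adjusted p = 0.0187). It was at 78.9 to 83.9 CPM in the 6 cKI inputs, between the control groups. Etnppl differed by −1.09 ± 0.15 (adjusted p = 0.0187). A730081D07Rik differed by −2.90 ± 0.43 (adjusted p = 0.0293), at 0.807 to 1.41 CPM in cKI inputs. It was tested only because its naive control libraries reached 1 CPM, so this difference rests on a gene that passed through the group where it is high.

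CTGF, the connective tissue growth factor, was the 1 gene whose training effect differed between the input and the IP of control mice, by 1.98 ± 0.14 (input minus IP, adjusted p = 0.00116). In the IP it was at 10.7, 15.3 and 9.08 CPM in naive mice and 4.04, 3.55 and 2.91 at 1 h. In the inputs it was at 13.2, 21.3 and 13.8 CPM and then 19.0, 21.2 and 16.7, so the groups were apart in the IP and overlapped in the inputs. Neither fraction alone passed its own test, with adjusted p = 0.244 in the IP and 0.616 in the inputs.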

How the results depend on the processing

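The number of calls differed strongly between settings. Of 75 called genes that were followed by name, 0 changed sign under any setting. For all 152 called genes the libraries at 1 h lay outside the naive range, so these settings could hardly change a sign. Of the 75, 20 kept their call whichever library was left out. Against 82 higher and 70 lower genes, DESeq2 called 189 and 121, the 6 control inputs alone 7 and 10, lane as a covariate 9 and 4, and lane 5 alone 17 and 10. Leaving out 1 library gave 19 to 73 higher and 12 to 60 lower. The cKI inputs (1 higher, 2 lower) had 12 and 11 by DESeq2, 0 to 2 and 0 to 2 with 1 library left out, and 1 lower with a replicate block. The control IP (21 and 28) had 112 and 150 by DESeq2, 44 and 68 without a filter, and 4 to 32 and 3 to 13 with 1 library left out. The genotype difference (6) had 35 by DESeq2, 10 without a filter, 1 with lane and 3 to 19 with 1 library left out. The fraction difference (1) had 27 by DESeq2, 21 without a filter, 0 with lane, 0 with no replicate block (mouse left out) and 1 to 2 with 1 library left out. The causes were not tested. The 6 inputs alone leave fewer samples to estimate the spread, and whether this lowered the number of calls was not tested either. Npas4, which was not called, had −0.12 with lane, −0.12 in lane 5 alone, and −0.24 to 0.25 with 1 library left out. With a replicate block 55 genes were called higher and 50 lower. The deviations of same-numbered control inputs correlated at −0.178, −0.203 and 0.0342. These values gave no sign that the numbers pair the mice, though so few cannot exclude it.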
